A study of Mus musculus with 6 samples.

Results

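Chemokines are small secreted proteins that guide cells along concentration gradients. They are named after the spacing of conserved cysteines near their N terminus (CC, CXC, CX3C and XC) and act on G protein-coupled receptors, while atypical receptors bind the same ligands and clear them without activating G proteins. Most of the family recruits leukocytes, and the pair of Cxcl12 and Cxcr4 also holds stem and progenitor cells in their niches and guides cell movement in developing organs, including glands. The members examined here were all genes whose symbol on the array begins as that of a chemokine (Ccl, Cxcl, Cx3cl, Xcl) or of a chemokine receptor (Ccr, Cxcr, Cx3cr, Xcr) followed by a number. They were 55 of 36282 gene names on the array, 35 ligands and 20 receptors, measured by 69 probes.

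The mice were male FVB/N transgenic (Tg) 11.5kb-GFP animals at 6 days of age, in which the s-SHIP promoter drives GFP, and were not treated. Both populations came from the prostates of these mice and carried the transgene. They were sorted as cells lacking the lineage markers Ter119, CD31 and CD45 and bearing Sca-1 and CD49f (LSC cells), and then parted by GFP fluorescence, with 3 independent samples of LSC GFP+ cells and 3 of LSC GFP- cells. GFP reports activity of this promoter and is the only difference in the sort, and neither the labels nor the methods give the number of mice in a sample. The RNA was amplified before labeling with Cy3 and 1 array was hybridized per sample. Signals are given below as levels on the log2 scale relative to the 75th percentile of the same array, so a level of 0 means a signal equal to that percentile, and levels of different probes are not comparable. A difference is the mean level in LSC GFP+ cells minus that in LSC GFP- cells, on the log2 scale.

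The 6 arrays resembled each other, with correlations across probes between 0.963 and 0.979. Between 36657 and 42127 of the 55681 probes were well above background on an array and no spot was saturated. Of the 25616 genes tested, 1963 had an unadjusted p under 0.05 in limma, which is 7.66%. Of the 37008 probes tested, 2925 (7.9%) had an unadjusted p under 0.05 and 1 (0.0027%) an adjusted p under 0.05. No chemokine or receptor probe passed after adjustment. The lowest adjusted p among them was 0.0990, from a Cxcl10 probe tested only through its LSC GFP+ arrays. Calls below are therefore at the unadjusted threshold and are read against these shares. The basal markers Krt5, Krt14 and Trp63 were above background on all 6 arrays, which alone does not show cell identity. Ptprc, the gene of the sorting antigen CD45, was also above background on all 6 arrays, at mean levels of -1.48 in LSC GFP+ and -1.43 in LSC GFP- cells.

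Of the 55 genes, 28 were tested, 20 ligands and 8 receptors, because they had a probe that rose well over background on each of the 3 arrays of one population or both. In this set 4 genes passed the unadjusted threshold, beside 7.66% of all tested genes. Of the 35 tested probes of the 28 genes 6 did, beside 7.9% of all probes. These 6 included a second Cxcl10 probe that was tested only through its LSC GFP+ arrays, which fixed its direction. Cxcl10 and Cxcl1 were higher in LSC GFP+ cells, 2 of 28 beside 3.38% of all tested genes, and Cxcl12 and Cxcl16 were lower, 2 of 28 beside 4.29%. All 4 are CXC ligands, a class with 13 members of which 10 were tested. None of the 9 tested CC ligands and none of the 8 tested receptors passed. The populations did not overlap for 5 of the 28 genes, Cxcl12, Cxcl16, Cxcl10, Cxcr4 and Ccl27a, beside 11.9% of all tested genes. The median difference of the 28 genes was -0.12, that of all 25616 tested genes was -0.0068, and 9 of the 28 differences were above 0. With LSC GFP+ replicate 2 left out the median of the members was 0.029. With 4 called genes, nothing is read from these counts about the family as a whole.

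**Figure D1:**
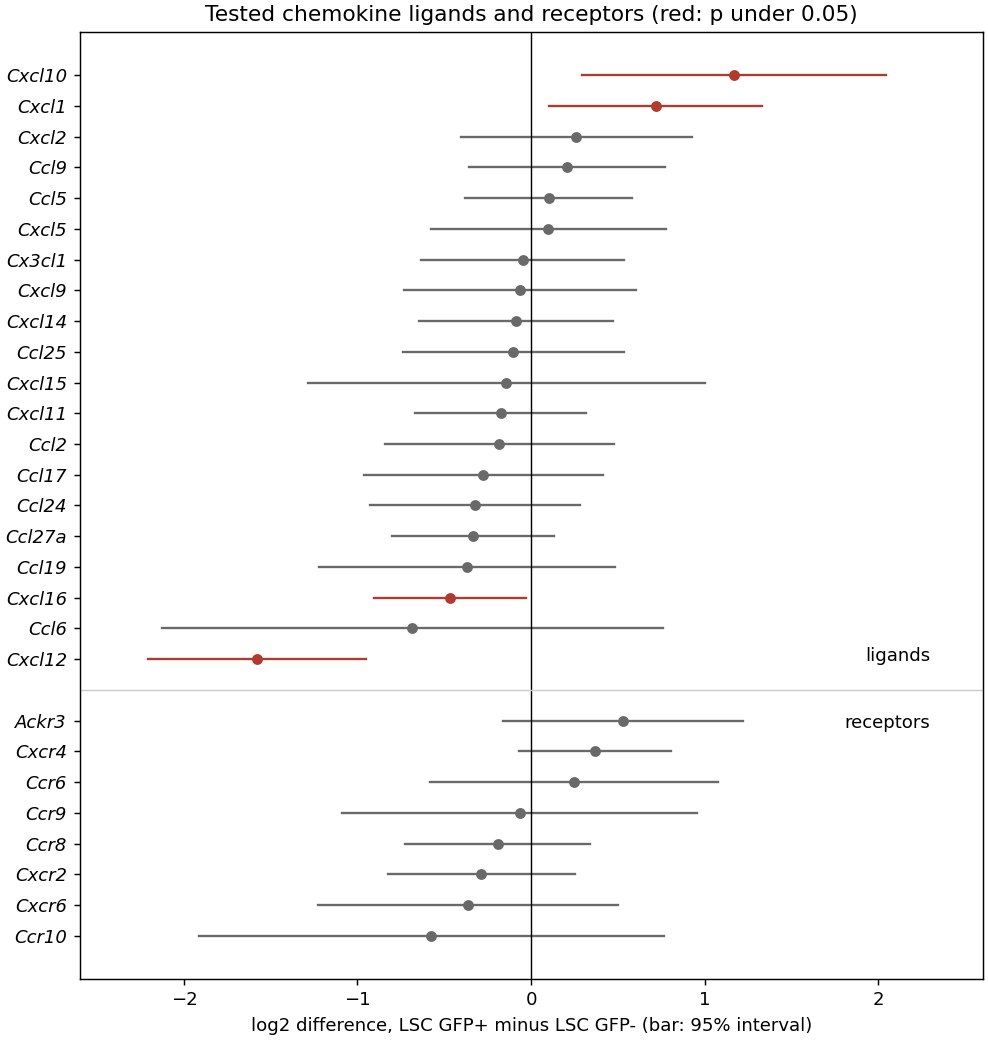
Difference (log2 scale, LSC GFP+ minus LSC GFP-) of the brightest tested probe of each of 20 ligands and 8 receptors, with the 95% interval from limma as a bar and genes at an unadjusted p under 0.05 in red. Cxcl12 lies lowest at -1.58 and Cxcl10 highest at 1.17, and the intervals of 24 genes cross 0.

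Cxcl12 (stromal cell-derived factor 1), the ligand of Cxcr4 and of the atypical receptor Ackr3, had the largest difference among the brightest probes of the 28 tested genes. Its brighter probe, at chr6:117131227-117131286 (mm9, forward strand), read 0.70, 0.31 and 0.71 on LSC GFP+ replicates 1, 2 and 3. It read 2.53, 1.65 and 2.28 on LSC GFP- replicates 1, 2 and 3. Every LSC GFP+ array was below every LSC GFP- array. The mean levels were 0.57 ± 0.22 and 2.15 ± 0.46 (SD, n = 3 each). This is a difference of -1.58 (SE 0.27), or a signal 2.99-fold lower in LSC GFP+ cells, with an unadjusted p of 0.000428 and an adjusted p of 0.110 by limma. The difference was -1.83, -1.33 and -1.57 between samples of replicate number 1, 2 and 3. A second probe lies upstream in the gene, at chr6:117125026-117125085 on the same strand, and the array design cites another transcript for it. It read -3.32, -3.77 and -3.92 in LSC GFP+ and -2.02, -3.28 and -2.92 in LSC GFP- cells, again without overlap, with a difference of -0.93 (SE 0.34, unadjusted p of 0.0273, adjusted p of 0.503). Both probes were therefore lower, by different amounts. Cxcl12 is drawn in the study's plot of genes selected on these same arrays, so its difference is not independent evidence of a direction.

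Stromal and smooth muscle cells are a usual source of Cxcl12 in tissues. The sort required Sca-1 and CD49f. The study assigns prostate stroma to the fraction without CD49f. It also reports that the LSC cells it isolated for sphere assays were all CD24+ and epithelial. It describes GFP-bright vascular smooth muscle cells as having little of either protein, which does not cover other smooth muscle. How many such cells remained in either population was not tested. Of 12 stromal markers 11 were tested, 1 was called higher and 6 were called lower in LSC GFP+ cells, at a median difference of -1.21. Their linear signal was summed in units of each array's 75th percentile, and such a sum follows its brightest probes. It ranged from 20.1 to 26.4 in LSC GFP+ and from 22.3 to 63.8 in LSC GFP- cells. The collagen gene Col1a1 was at -0.94 and 1.24 on average, and Pdgfra, which encodes a growth factor receptor of fibroblasts, at -3.61 and -1.25. The stromal gene called higher was Dcn, at 3.70 and 2.51, with the brightest probe of this list in LSC GFP+ cells. Of 10 smooth muscle markers 9 were tested and 8 were called lower, with a median of -1.68 and sums from 9.18 to 14.1 against 27.7 to 54.9, which do not overlap. Acta2, the smooth muscle actin, was at 1.03 and 3.16. On the LSC GFP- arrays each of these 4 named markers was above background throughout, and on the LSC GFP+ arrays so were Col1a1, Dcn and Acta2. Pdgfra was above background on 2 LSC GFP+ arrays, so that it was tested through its LSC GFP- arrays. In sorted bulk RNA, fewer cells of a type and less RNA per cell cannot be told apart, and the part of these markers in the Cxcl12 difference was not tested.

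**Figure D2:**
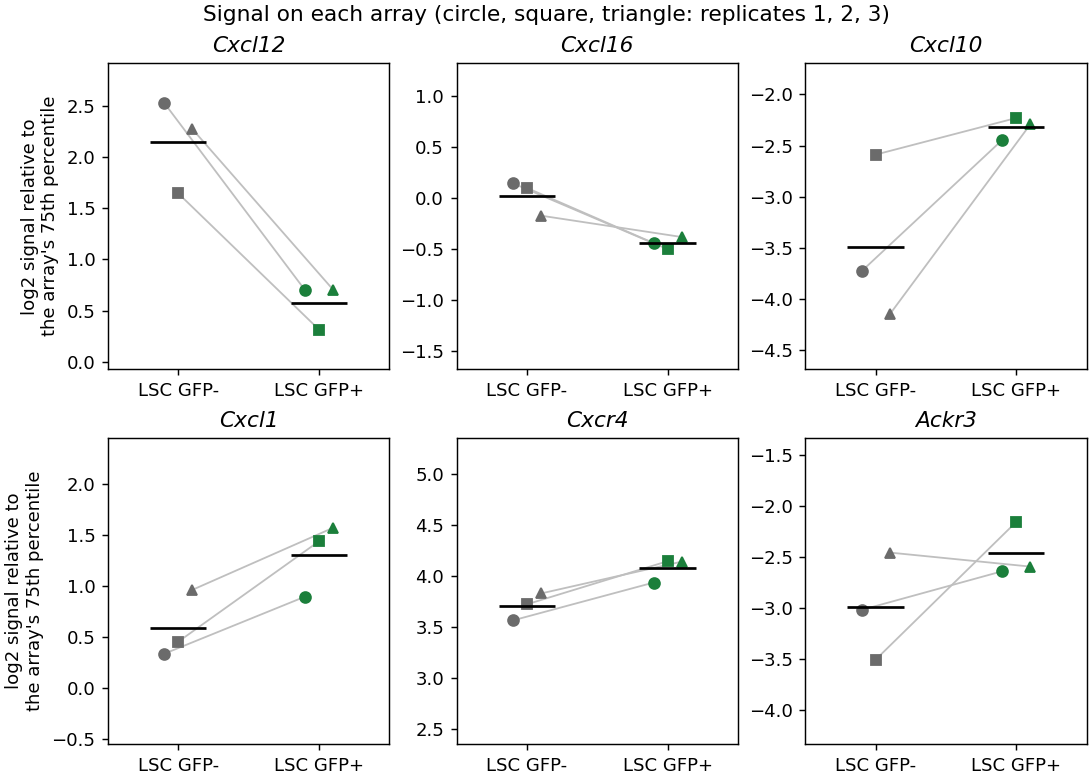
Level of 6 genes on each array (log2 signal relative to the array's 75th percentile), LSC GFP- at left and LSC GFP+ at right in each panel. Symbols stand for replicate numbers and are joined by grey lines, black bars are means of 3 arrays, and every vertical axis spans the same range. Cxcl12 and Cxcl16 fall along all 3 lines, Cxcl10, Cxcl1 and Cxcr4 rise along all 3, and Ackr3 rises along only 2 of them.

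Cxcr4, the signalling receptor of Cxcl12, was well above background on all 6 arrays. Its probe (chr1:130485079-130485138, mm9, reverse strand) read 3.94, 4.15 and 4.14 in LSC GFP+ cells. It read 3.57, 3.72 and 3.83 in LSC GFP- cells. The populations did not overlap, but the gap was narrow, from 3.83 to 3.94. The difference was 0.37 (SE 0.19), with a 95% interval from -0.07 to 0.80, an unadjusted p of 0.0875 and an adjusted p of 0.749 by limma. It was 0.37, 0.42 and 0.31 within replicate numbers 1, 2 and 3, and with the replicate number as a block in limma the unadjusted p was 0.0362. It was also under the threshold with normexp background correction (0.36, unadjusted p of 0.0410) and by the methods' t-test (unadjusted p of 0.0235). It stayed above the threshold with an intensity trend (unadjusted p of 0.0634) and under the other alternatives. Over all alternatives it was between 0.30 and 0.44.

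Ackr3, which the array names Cxcr7, encodes the atypical receptor that scavenges Cxcl12. It read -2.64, -2.15 and -2.59 in LSC GFP+ and -3.02, -3.50 and -2.45 in LSC GFP- cells. LSC GFP- replicate 3 was above both LSC GFP+ replicates 1 and 3, so the populations overlapped. The difference was 0.53 (SE 0.30, unadjusted p of 0.114), with a 95% interval from -0.16 to 1.22. Without LSC GFP- replicate 3 it was 0.80 with an unadjusted p of 0.0213. Leaving out LSC GFP- replicate 2 gave 0.27 (unadjusted p of 0.379), and normexp background correction gave 0.14 (unadjusted p of 0.384). In its probe, stretches of 16 bases recur in 27 of 32851 RefSeq promoter windows, and whether other transcripts add to its signal was not tested. The ligand and its receptors thus gave a called negative difference for Cxcl12 and positive differences, neither past the threshold, for both receptors.

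Dpp4 encodes a surface peptidase that trims and inactivates Cxcl12 and Cxcl10. It was the 1 called gene among 13 atypical receptors and chemokine-like genes, of which 10 were tested. That count is near the share of 7.66% called among all tested genes, so it is not read as a result about the list. Dpp4 read 0.14, 0.69 and 1.22 in LSC GFP+ and 1.37, 1.94 and 2.13 in LSC GFP- cells, without overlap. The difference was -1.13 (SE 0.33, unadjusted p of 0.00869, adjusted p of 0.327). The median of this list was -0.075. Ackr1 and Ackr2, further scavenging receptors, differed by 0.14 and -0.07, and Mif, a cytokine that also binds Cxcr4, by 0.33, with unadjusted p of 0.539, 0.760 and 0.253. Ackr4, which clears Ccl19 and Ccl25, differed by 1.14 (SE 0.60, unadjusted p of 0.0930), with overlapping populations, and was above background on 3 LSC GFP+ arrays and 1 LSC GFP- array, so that it was tested through its LSC GFP+ arrays. Without LSC GFP- replicate 3, 1 gene of this list was called higher.

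Cxcl10 is induced by interferons and attracts activated T cells through Cxcr3. Its brighter probe (chr5:92776616-92776675, mm9, reverse strand) read -2.45, -2.23 and -2.29 in LSC GFP+ cells. It read -3.73, -2.59 and -4.15 in LSC GFP- cells. The LSC GFP+ arrays lay close together above all LSC GFP- arrays, of which replicate 2 came nearest. The difference was 1.17 (SE 0.38), 2.25-fold higher in LSC GFP+ cells, with an unadjusted p of 0.0153 and an adjusted p of 0.408 by limma. It was 1.29, 0.36 and 1.86 within replicate numbers 1, 2 and 3. With normexp background correction it was 0.44, with an unadjusted p of 0.0578, and by the methods' t-test the p was 0.0684, so the call is lost under both.

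The second Cxcl10 probe (chr5:92775781-92775840, same strand) read -3.80, -2.72 and -3.49 in LSC GFP+ cells, above background on each array. It read -6.07, -5.05 and -5.92 in LSC GFP- cells and on none of those 3 arrays was it well above background. It passed the filter only through LSC GFP+ cells. The measured means were -3.34 and -5.68 with an adjusted p of 0.0990, and the signal is therefore given as a bound, at least 2.24-fold higher in LSC GFP+ cells. For the bound, the mean over LSC GFP+ arrays was set against the mean, over LSC GFP- arrays, of the lowest signal that counted there as well above background or the probe's own, whichever was higher. That choice fixes the direction of this probe, so it adds no support to that of the brighter one.

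Cxcl1 attracts neutrophils through Cxcr2 and is a classical target of NF-κB in epithelium. Its probe (chr5:91321845-91321904, mm9, forward strand) read 0.90, 1.44 and 1.57 in LSC GFP+ cells. It read 0.34, 0.46 and 0.96 in LSC GFP- cells. LSC GFP- replicate 3 was above LSC GFP+ replicate 1, so the populations overlapped, although within each replicate number LSC GFP+ was higher, by 0.56, 0.98 and 0.61. The difference was 0.72 (SE 0.27), or 1.64-fold, with an unadjusted p of 0.0276 and an adjusted p of 0.504 by limma. The unadjusted p was 0.0639 by the methods' t-test, and 0.0055 (adjusted p of 0.144) with the replicate number as a block in limma. It was 0.0970, 0.0823, 0.0806 and 0.0876 without LSC GFP- replicate 1, LSC GFP+ replicate 2, LSC GFP- replicate 2 and LSC GFP+ replicate 3, each of which thus ends the call.

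Leukocytes are a common source of both ligands. Of 18 leukocyte markers 11 were tested and 0 had an unadjusted p under 0.05 in limma or by the methods' t-test, in either direction, with a median difference of -0.027. Their summed linear signal ranged from 239 to 319 in LSC GFP+ and from 252 to 297 in LSC GFP- cells, nearly all of it from the probes of Itgam and Csf1r. Over the other 9 markers, a sum taken after the values were seen, it ranged from 2.04 to 3.17 and from 2.19 to 2.66. Ptprc differed by -0.054 (SE 0.18, unadjusted p of 0.767). The 7 untested markers, Lyz2, S100a8 and S100a9 among them, were not above background on all 3 arrays of either population. Of the basal epithelial markers 7 of 12 tested were called higher in LSC GFP+ cells (median 0.61), and their part in the Cxcl10 and Cxcl1 differences was not tested.

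Both genes are known to be switched on through short promoter motifs. Promoter windows are shown here for Cxcl10, Cxcl1 and Cxcl12, the 3 called genes that had one, and Cxcl16 had none. Whether any motif has a part in the differences was not tested. The windows are the 250 bases before each gene's start, read on the gene's strand, from RefSeq for GRCm38.p6, with matches to the κB motif (GGGANNTTC), the interferon response motif ISRE (GAAANNGAA) and the TATA motif (TATAAA) on either strand in capitals. Cxcl10 lies at chr5:92348890-92349139 on the reverse strand, Cxcl1 at chr5:90890995-90891244 and Cxcl12 at chr6:117168285-117168534 on the forward strand.
Cxcl10: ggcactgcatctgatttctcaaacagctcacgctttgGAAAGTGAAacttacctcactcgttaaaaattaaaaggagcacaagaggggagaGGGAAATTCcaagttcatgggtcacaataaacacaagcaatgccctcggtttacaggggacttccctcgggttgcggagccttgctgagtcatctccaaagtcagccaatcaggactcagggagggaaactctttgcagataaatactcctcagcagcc
Cxcl1: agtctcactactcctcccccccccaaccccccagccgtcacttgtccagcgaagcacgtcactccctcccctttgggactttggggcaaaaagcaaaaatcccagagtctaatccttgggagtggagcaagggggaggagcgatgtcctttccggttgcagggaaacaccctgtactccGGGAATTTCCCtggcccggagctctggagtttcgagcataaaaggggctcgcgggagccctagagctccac
Cxcl12: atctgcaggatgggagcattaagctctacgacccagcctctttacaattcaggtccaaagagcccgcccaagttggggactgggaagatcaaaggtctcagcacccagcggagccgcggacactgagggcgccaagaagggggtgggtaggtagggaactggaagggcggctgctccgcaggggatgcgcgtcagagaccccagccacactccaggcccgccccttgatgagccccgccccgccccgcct
Cxcl10 held an ISRE match that begins 213 bases before the start and a κB match that begins 159 bases before it. It also held a match to the AP-1 motif (TGANTCA), a palindrome, 74 bases before the start, not capitalized. Cxcl1 held κB matches on both strands, beginning 71 and 69 bases before the start, which overlap in a single stretch. Cxcl12 held no match to any of the 4 motifs in these 250 bases or in the 50 after the start. Over all 32851 RefSeq windows of 300 bases, κB matched in 3.94%, ISRE in 8.56%, TATA in 13.6% and AP-1 in 7.81%. Of the 55 members 40 had such a window, and κB matched in 8 of them (Ccl1, Ccr3, Cxcl1, Cxcl10, Cxcl2, Cxcl3, Cxcl9 and Cxcr2) and ISRE in 8 (Ccl1, Ccl19, Ccl3, Ccr2, Cxcl10, Cxcl14, Cxcl9 and Cxcr1). Of the other members with κB matches, Cxcl2 and Cxcl9 differed by 0.26 and -0.06 and Cxcr2 by -0.29, none past the threshold, and Ccl1, Ccr3 and Cxcl3 were not tested. Each motif was searched only as the single pattern given, so other forms of it were not counted. A match is a stretch of letters and not a shown binding site.

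Cxcl16 is made as a membrane-bound ligand of Cxcr6 that is also a scavenger receptor and can be shed. Its probe (chr11:70267780-70267839, mm9, reverse strand) read -0.45, -0.50 and -0.38 in LSC GFP+ cells. It read 0.14, 0.10 and -0.18 in LSC GFP- cells. The populations did not overlap, with LSC GFP- replicate 3 nearest to the LSC GFP+ arrays. The difference was -0.47 (SE 0.19), 1.38-fold lower in LSC GFP+ cells, with an unadjusted p of 0.0397 and an adjusted p of 0.586 by limma. Scaling by the array median gave -0.40 (unadjusted p of 0.0812), and without a filter on dim probes the p was 0.0567. With the replicate number as a block in limma the unadjusted p was 0.0277 and the adjusted p 0.269. Without a single array the p was 0.0639 to 0.136 in 5 of 6 cases, the exception being LSC GFP- replicate 3. Its receptor Cxcr6 was measured by 2 overlapping probes. The brighter read -0.91, -2.15 and -0.84 in LSC GFP+ and -1.02, -0.58 and -1.20 in LSC GFP- cells. LSC GFP+ replicate 2 was the lowest array, and the difference of -0.36 (SE 0.37, 95% interval from -1.22 to 0.50) was 0.062 without it.

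Several members of the CXC class lie together on chromosome 5, where 9 ligand genes span 91190490 to 96389920 (mm9). In this cluster 7 were tested and 2, Cxcl10 and Cxcl1, were called higher, beside 3.38% of all tested genes. With 2 called genes, nothing is read from this count about the cluster. Cxcl2 and Cxcl5, which share Cxcr2 with Cxcl1, differed by 0.26 (unadjusted p of 0.393) and 0.10 (unadjusted p of 0.748). Cxcl2 was above background on 3 LSC GFP+ and 2 LSC GFP- arrays. Cxcr2 itself read -3.40, -3.80 and -3.84 in LSC GFP+ and -3.25, -3.21 and -3.72 in LSC GFP- cells, a difference of -0.29 (SE 0.23, unadjusted p of 0.254). Cxcl9, which shares Cxcr3 and interferon induction with Cxcl10, differed by -0.06 on its tested probe, with a 95% interval from -0.73 to 0.60, while no array showed its other probe well above background. The same held for Cxcr3, so the receptor of Cxcl10 has no difference to report.

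Cxcl11, the third ligand of Cxcr3, also binds Ackr3. Its brighter probe read 7.81, 7.33 and 7.32 in LSC GFP+ and 7.76, 7.72 and 7.53 in LSC GFP- cells, overlapping, with a difference of -0.18 (SE 0.21, unadjusted p of 0.434). These levels cannot be assigned to Cxcl11 alone. The probe contains a stretch of a repeat, from base 14 on, which is shown here for that reason.
Cxcl11 probe, 30 of 60 bases: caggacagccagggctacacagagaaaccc
These letters belong to the consensus of B1, an abundant short interspersed element of the mouse genome. Stretches of 16 bases from this probe recur in 55 of 32851 RefSeq promoter windows (0.167%) and in 19 probes for other genes. The second Cxcl11 probe shares such stretches with 10 windows. Of the 66 probes for members other than Cxcl11 and Ackr3, none shared with more than 3 windows and 46 shared with none. How much of the signal came from Cxcl11 was not tested.

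Among the CC ligands, Ccl27a, Ccl25 and Ccl19 are named with their receptors. Ccl27a, an epithelial chemokine of skin that acts on Ccr10, was measured by 3 probes. The brightest read -0.69, -0.23 and -0.34 in LSC GFP+ and -0.08, -0.16 and -0.01 in LSC GFP- cells, without overlap. Its difference was -0.34 (SE 0.20, unadjusted p of 0.137), and the other probes gave -0.39 (unadjusted p of 0.100) and -0.21 (unadjusted p of 0.517). Ccl27a has a near-identical copy, Ccl27b, and the probes may read both. Ccr10 was above background on 2 LSC GFP+ and 3 LSC GFP- arrays. It read -3.93, -5.10 and -2.61 in LSC GFP+ and -3.49, -3.69 and -2.73 in LSC GFP- cells, a difference of -0.58 (SE 0.58, unadjusted p of 0.350). This rests on LSC GFP+ replicates 2 and 3, since it was 0.033 without the former and -1.21 (unadjusted p of 0.0209) without the latter.

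Ccl25 attracts developing T cells to the thymus and gut through Ccr9. It read 2.40, 2.10 and 1.67 in LSC GFP+ and 2.21, 2.50 and 1.76 in LSC GFP- cells, a difference of -0.10 (SE 0.28, unadjusted p of 0.722). Ccr9 was above background on 3 LSC GFP+ and 2 LSC GFP- arrays and differed by -0.07 (SE 0.44, 95% interval from -1.09 to 0.96). Ccl19 guides dendritic cells and T cells to lymph nodes through Ccr7. Its brightest probe read 1.90, 0.91 and 0.77 in LSC GFP+ and 1.81, 1.88 and 0.99 in LSC GFP- cells, overlapping, a difference of -0.37 (SE 0.37, unadjusted p of 0.345). Its second tested probe, nearby on chromosome 4, gave 0.0035 (unadjusted p of 0.991), so the probes differed in sign within their error. Ccl19 has further near-identical gene copies in the mouse genome, which the probes may also read. On no array was Ccr7 well above background.

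**Figure D3:**
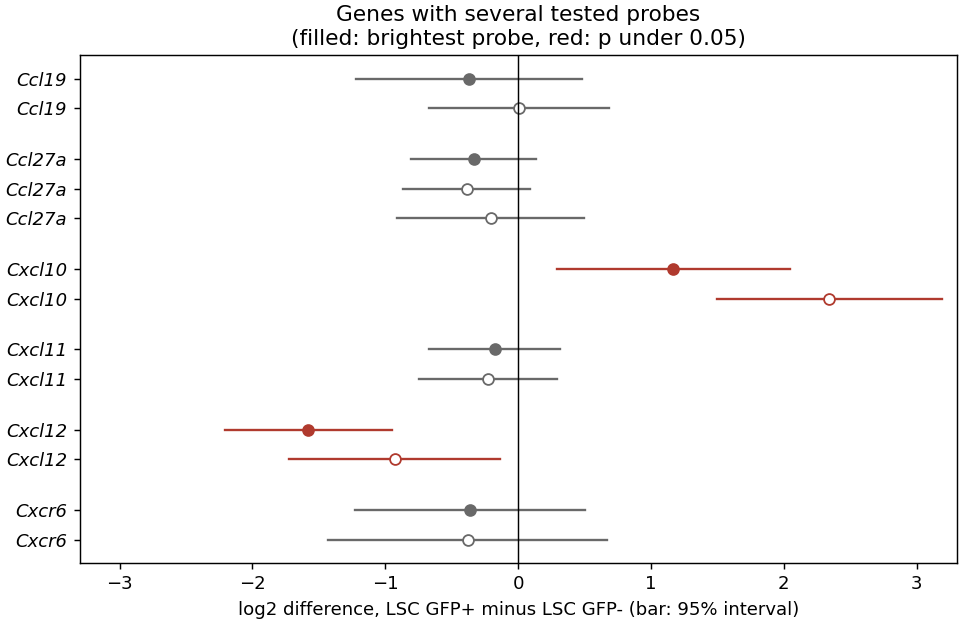
Difference (log2 scale, LSC GFP+ minus LSC GFP-) of every tested probe of the 6 genes with several tested probes, with 95% intervals as bars, the brightest probe of a gene filled and probes at an unadjusted p under 0.05 in red. Both Cxcl12 probes lie below 0, and the open Cxcl10 point at 2.34 is a fitted value of a probe that was not well above background in LSC GFP- cells and whose direction the filter fixed.

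The other CC ligands that were tested, Ccl2, Ccl5, Ccl6, Ccl9, Ccl17 and Ccl24, recruit monocytes, T cells or eosinophils. Their differences lay between -0.68 (Ccl6) and 0.21 (Ccl9) and none passed the threshold. The Ccl6 value rests on LSC GFP- replicate 2, which read -1.01 where the other arrays read from -3.64 to -2.84, and was 0.12 without it. Cx3cl1, the membrane-anchored ligand of Cx3cr1, differed by -0.05 (SE 0.25, unadjusted p of 0.852). Cxcl14 and Cxcl15, an epithelial ligand with no settled signalling receptor and a lung chemokine of the mouse, differed by -0.09 and -0.14, with SE of 0.24 and 0.49 and unadjusted p of 0.727 and 0.781. Over the 24 members not called, the 95% interval reached between 0.436 and 1.44 to either side of the difference. With 3 arrays per population, an observed difference smaller than a gene's own reach could not pass the threshold. A true difference of about that size could be missed.

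Of the remaining receptors, Ccr8 was above background on all 6 arrays. It read -2.50, -2.78 and -3.16 in LSC GFP+ and -2.80, -2.49 and -2.57 in LSC GFP- cells, a difference of -0.19 (SE 0.23, unadjusted p of 0.426). A second Ccr8 probe, and the probe of its ligand Ccl1, were on no array well above background, and its other ligand Ccl8 was so on 1 LSC GFP+ and 2 LSC GFP- arrays. Ccr6, the receptor of Ccl20, was above background on 3 LSC GFP+ arrays and 1 LSC GFP- array and passed the filter through LSC GFP+ cells. Its difference was 0.25 (SE 0.36, unadjusted p of 0.509). It was 0.67 (unadjusted p of 0.0292) without LSC GFP- replicate 2 and -0.030 without LSC GFP- replicate 3.

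The 27 members not tested comprised 15 ligands and 12 receptors. Over all 55 genes, 23 had a probe above background on all 6 arrays, 18 of 35 ligands and 5 of 20 receptors. On 1 to 5 arrays it was 11 genes, 4 ligands and 7 receptors, and on no array 21 genes. The 13 ligands on no array were Ccl1, Ccl3, Ccl4, Ccl7, Ccl11, Ccl12, Ccl20, Ccl22, Ccl28, Cxcl3, Cxcl13, Cxcl17 and Xcl1. The receptors on no array included Ccr1, Ccr1l1, Ccr4, Ccr7, Cxcr1, Cxcr3 and Cxcr5. Among these, Ccr7, Cxcr3 and Cxcr5 guide lymphocytes, and Ccr1 guides monocytes. Of the genes above background in part, Ccr2, the receptor of Ccl2, was so on 2 LSC GFP+ arrays and no LSC GFP- array, and Ccr3, an eosinophil receptor, on no LSC GFP+ and 2 LSC GFP- arrays. Neither was tested, and both are named for these values.

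**Figure D4:**
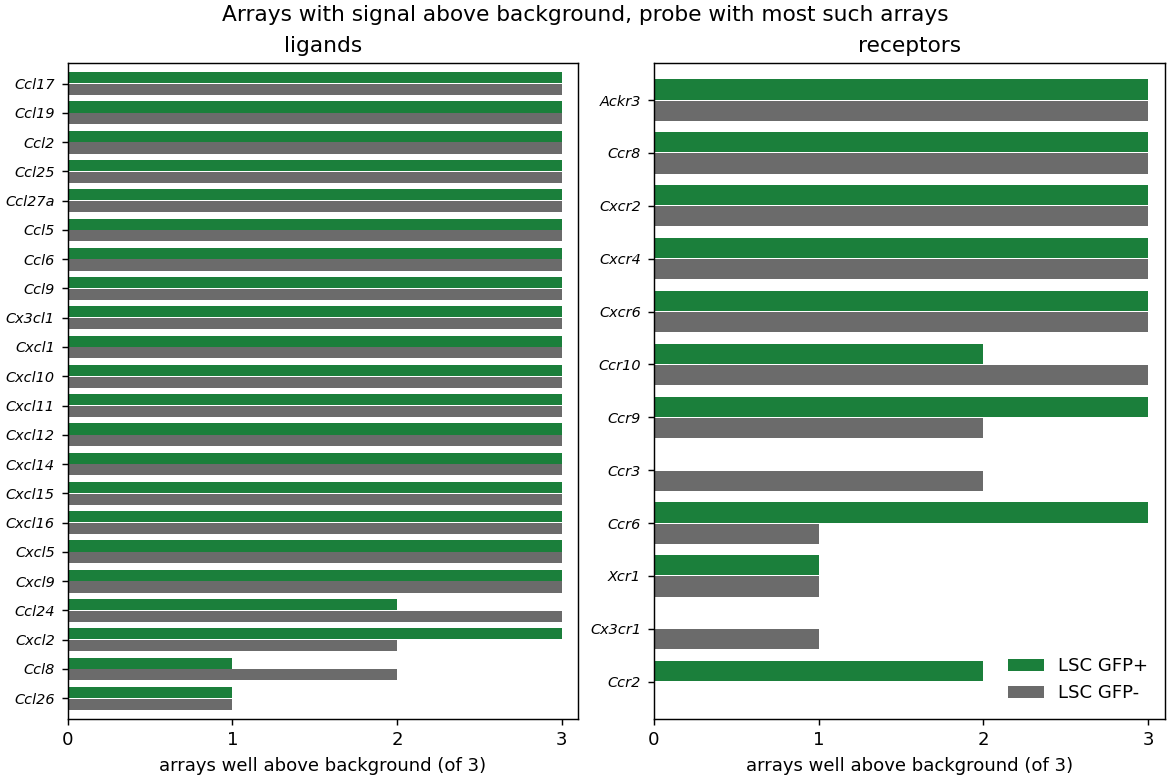
Number of arrays, of 3 per population, on which each of 22 ligands and 12 receptors was well above background, taking in each population the probe of the gene with the most such arrays and leaving out the 21 genes on no array. For 18 ligands and 5 receptors both bars reach 3.

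Downstream of the receptors, of 28 genes for G protein subunits, arrestins, receptor kinases, phospholipases, Rac and its exchange factors and kinases, 25 were tested. Gnai1, an inhibitory G protein subunit, was higher in LSC GFP+ cells, by 0.51 (SE 0.22, unadjusted p of 0.0478), and Jak2, a kinase, was lower, by -0.53 (SE 0.20, unadjusted p of 0.0285). That is 1 of 25 in each direction, beside 3.38% and 4.29% of all tested genes, with a median of -0.12. With the replicate number as a block, under which 5479 of all 37008 tested probes passed in either direction, 4 genes were called lower. Quantile normalization, normexp background correction, the rounded table and an intensity trend gave 2, and scaling by the median 0. No gene was called higher with normexp or the trend. With an array left out, 0 or 1 genes were called in each direction. The arrestins Arrb1 and Arrb2, which shut off chemokine receptors, differed by -0.42 and -0.33, with unadjusted p of 0.153 and 0.196. Endothelial markers, of cells that the sort depletes through CD31, had 8 of 12 tested and a median of -0.31, with Vwf lower by -0.82 (unadjusted p of 0.00642). Luminal markers had 2 genes higher and 1 lower of 11 tested, with a median of -0.24.

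**Figure D5:**
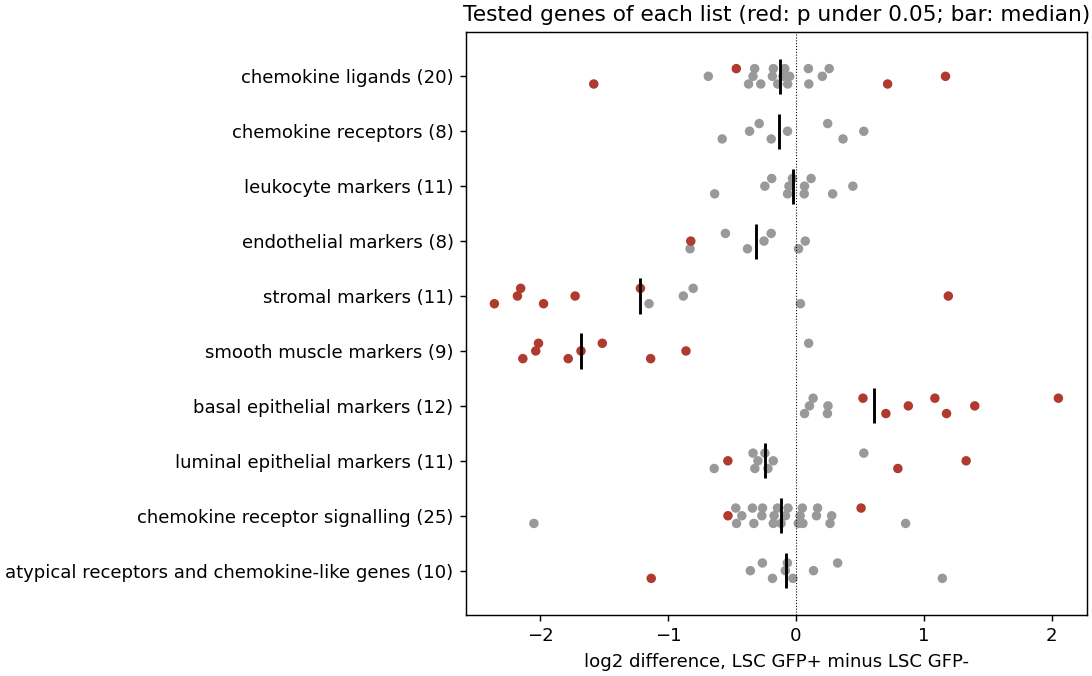
Difference (log2 scale, LSC GFP+ minus LSC GFP-) of each tested gene of 10 groups, the number tested in brackets, with genes at an unadjusted p under 0.05 in red and the group's median as a black bar. Chemokine ligands and receptors centre near -0.12 and -0.13, and stromal and smooth muscle markers lie lowest, with medians of -1.21 and -1.68.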

How the data were processed

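The members, gene lists, roles and tests were chosen with earlier results of these data known. Arrays were SurePrint G3 Mouse 8 × 60K in a single colour, and all 6 came from the same slide and scan, so neither could be tested. Per the file headers, the deposited intensity values are the processed signals of Feature Extraction 11.0.1.1 on the linear scale, with background subtracted, a spatial trend removed, substitute values for dim spots and no normalization between arrays. The submitters' processing notes give version 10.7.3.1 instead. The deposited flags for outlier, saturated and well-above-background spots, of other kind than a signal, were used as the authors' software set them. The series-wide table of the authors gives these signals to 3 significant digits and was used as an alternative.

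Signals were put on the log2 scale from the deposited intensities, the 75th percentile of an array's probe spots was subtracted, and the 123 to 154 outlier spots per array were left out before averaging the spots of each probe. Testing was limited to the 37008 probes marked well above background on every array of one population or both. In R 4.3.3, limma 3.58.1 (lmFit and eBayes) compared the populations over all of them, two-sided, without further terms, with Benjamini-Hochberg adjustment. The script was tested on simulated data. A gene was represented by its tested probe with the highest mean level. Student's t-test, which the paper's methods name with no correction, was run as an alternative on the same filtered probes and is called the methods' t-test. The paper's results report that probes were filtered before its comparison, without the rule used. Where the labels say no more than that samples were independent, p values measure only the spread between these samples. Precision is limited by the number of arrays, since with 3 arrays in each population 0.1 is the smallest exact permutation p.

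Symbols were updated through accessions in a RefSeq table of GRCm38.p6, which matched 26576 probes, while probe positions are those of the array design, in mm9. The part of a transcript in which a probe lies was not analysed here. Promoter windows are RefSeq's, 250 bases before to 50 after a gene's start. Genes named are the members with a tested probe at an unadjusted p under 0.05, Cxcl12 and its receptors, the 5 ligands and 5 receptors with the highest mean level, members whose populations did not overlap, and the textbook partners of these. Ackr4, Ccl6, Ccl9, Ccr2, Ccr3, Ccr6, Cx3cl1, Cxcl14 and Cxcl15 fall outside this rule and were chosen once their values had been seen. Some genes that entered the counts are not reported by name here.

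Samples with the same replicate number deviated together from their population means, with correlations across probes of 0.43, 0.28 and 0.67 for numbers 1, 2 and 3. LSC GFP+ replicate 1 with LSC GFP- replicate 2 gave 0.22, and the other 5 pairs were negative. The numbers in the labels were therefore read as pairs in the replicate block and in differences within replicate numbers. The main fit has no term for this pairing, since the study's methods name no block, so its p values leave the pairing out. Each alternative altered a single choice. They were quantile normalization, scaling by the median, normexp background correction (offset 50), the rounded table, 3 other filters, the methods' t-test, an intensity trend, the replicate block, the mean over a gene's probes and each array left out.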

Additional observations from a re-analysis of the deposited data

How the results depend on the processing

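Cxcl12 kept its direction and its call under all 17 alternatives. The number of called chemokine genes was 4, 3 by the methods' t-test or scaling by the median, 5 with no filter or 1 array above background, between 2 and 5 with an array left out and 5 when replicate numbers formed a block, which added Cxcr4 (unadjusted p of 0.0362) and changed no other call among the chemokine genes. Called probes were 6, the second Cxcl10 probe among them. They numbered from 4 by the methods' t-test to 8 with no filter, and 7 with the block. With an array left out they numbered between 3 and 7. Called genes higher in LSC GFP+ cells were 2, but 1 by the methods' t-test and between 1 and 3 with an array left out. Equal counts did not always mean the same genes. By the methods' t-test the gene called higher was Cxcr4, and neither Cxcl10 nor Cxcl1 was called. With normexp background correction Cxcr4 took the place of Cxcl10. Called genes lower were 2, but 1 with scaling by the median, 3 with no filter or 1 array above background and between 1 and 2 with an array left out. Without LSC GFP+ replicate 3 the genes called lower were Cxcl12 and Ccr10, and Cxcl16 was not called. The median difference of the members ran from -0.24 to 0.029 with an array left out. Over all probes the count at an unadjusted p under 0.05 moved too, from 2925 of 37008 to 5479 with the block. It was 2798 by the methods' t-test and 2770 with scaling by the median. With no filter it was 3337 of 55681, and with at least 1 array above background 2883 of 45742. With an array left out it was between 2077 and 4049. The shifts in member counts are therefore not read as results about the family. The count after adjustment was 1. It was 3 with quantile normalization, with scaling by the median or without LSC GFP- replicate 3, and 0 or 1 under the rest.

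Small differences near 0, none of them called, changed sign: Ccl9 to -0.0013 with normexp, and Ccr9, Cx3cl1 and Cxcl9 to 0.0038, 0.020 and 0.0047 with scaling by the median. With an array left out, differences of uncalled genes that changed sign ranged for Ccl17 from -0.52 to 0.025, Ccl2 from -0.43 to 0.047, Ccl25 from -0.30 to 0.091, Ccl5 from -0.0048 to 0.20, Ccl6 from -1.17 to 0.12 and Ccl9 from -0.024 to 0.35. For receptors the ranges were -1.21 to 0.033 for Ccr10, -0.030 to 0.67 for Ccr6, -0.54 to 0.17 for Ccr9 and -0.59 to 0.062 for Cxcr6. For Cx3cl1 they ran from -0.28 to 0.070, for Cxcl14 from -0.29 to 0.017, for Cxcl15 from -0.64 to 0.45, for Cxcl5 from -0.16 to 0.28 and for Cxcl9 from -0.34 to 0.093. The causes were not tested. For dim members the signal over background limits what can be seen, since 34 of 69 probes were not tested.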
